A study of Caenorhabditis elegans with 2 samples.

Results

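Tagged TBX-2 was mapped at the genes of the RNA polymerase II machinery in late embryos of Caenorhabditis elegans. The genes were taken by symbol: every nuclear protein-coding gene of the WBcel235 annotation whose name starts with mdt-, taf-, tbp-, rpb- or gtf-. That gave 59 of 19973 genes. They comprise 20 Mediator genes (mdt-), 18 TFIID genes (17 taf- genes and tbp-1), 11 RNA polymerase II subunit genes (rpb-) and 10 genes of the other general factors (gtf-). The experiment was chromatin immunoprecipitation and sequencing (ChIP-seq) with an antibody against GFP in strain OP159, genotype unc-119(ed3) III; wgIs159. The integrated transgene wgIs159 encodes TBX-2, a T-box transcription factor, with GFP and FLAG at its C-terminus. Hermaphrodites supplied whole late embryos, collected 3.5 h after synchronization by egg bleaching, in 2 biological replicates. Both replicates carried the same alleles and transgene, so there was 1 group and no second condition, and the cell types behind a peak are unknown. Neither the promoter that drives the transgene nor its copy number is stated in the labels.

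In textbook terms, TFIID binds the core promoter through the TATA-binding protein and its associated factors. The other general factors then place RNA polymerase II, open the DNA and start transcription, and Mediator passes signals from DNA-bound factors to the polymerase. Every cell uses most of these proteins, and some Mediator subunits also have specialised roles in worm development and metabolism. In C. elegans many messenger RNAs receive a spliced leader in place of their original start, so an annotated 5′ end can lie downstream of the true start of transcription.

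The deposited optimal list held 3053 peaks, labelled as thresholded on the irreproducible discovery rate (IDR), which grades peaks by how well 2 sets of peaks rank alike. Relaxed lists held 25747 peaks for the pooled data, 23800 for replicate 1 and 23216 for replicate 2. The pooled relaxed list is labelled as peaks and background that serve as input for IDR. Each peak has a signal, the authors' own value, whose scale differs between lists, so it was used only to rank and describe peaks within a list. A gene was counted as carrying a peak when a summit lay within 1 kb of any of its annotated 5′ ends. Neighbouring 5′ ends, and places between genes, were judged from protein-coding genes only. Read depth is unknown, and no list from an untagged strain or another tagged factor was used here.

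Sequences are shown for strong peaks outside exons at mdt-8, mdt-26, mdt-19, taf-12, taf-7.2 and rpb-11, and for the weaker taf-3 peak (rank 1570), which was chosen after its letters were seen because it holds CTGCGTCT. They are examples of windows with and without the words counted at all 20 peaks. Each holds the summit base and 50 bases to each side, 5′ to 3′ on the strand of the named gene, from the RefSeq assembly WBcel235 (the ce11 sequence). Capitals mark any match, on either strand, to the GA repeat GAGAGA, the element CTGCGTCT, the GC-box GGGCGG or the word GCGC. The windows lie at chrII:11534731-11534831 (minus strand) for mdt-8, chrII:5661812-5661912 (plus) for mdt-26 and chrIII:2597205-2597305 (plus) for mdt-19. Those of the others are chrIII:11870181-11870281 (minus) for taf-12, chrIII:12673519-12673619 (minus) for taf-7.2, chrX:16332043-16332143 (plus) for taf-3 and chrII:14059934-14060034 (plus) for rpb-11.
mdt-8: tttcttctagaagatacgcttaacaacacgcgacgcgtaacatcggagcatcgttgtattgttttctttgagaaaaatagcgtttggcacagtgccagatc
mdt-26: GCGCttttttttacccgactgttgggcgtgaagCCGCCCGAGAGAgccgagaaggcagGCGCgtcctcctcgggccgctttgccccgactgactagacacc
mdt-19: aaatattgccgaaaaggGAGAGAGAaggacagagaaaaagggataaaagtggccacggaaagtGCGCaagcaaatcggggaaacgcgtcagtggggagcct
taf-12: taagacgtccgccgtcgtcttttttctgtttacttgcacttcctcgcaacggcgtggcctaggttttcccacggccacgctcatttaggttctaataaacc
taf-7.2: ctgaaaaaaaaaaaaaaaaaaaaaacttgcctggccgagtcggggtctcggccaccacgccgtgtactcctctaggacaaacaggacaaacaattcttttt
taf-3: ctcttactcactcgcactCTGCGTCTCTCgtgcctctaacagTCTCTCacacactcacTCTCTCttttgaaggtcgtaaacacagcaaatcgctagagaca
rpb-11: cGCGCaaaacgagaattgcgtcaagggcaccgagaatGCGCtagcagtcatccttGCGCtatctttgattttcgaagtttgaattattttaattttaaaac
The windows of mdt-8 and taf-12, the strongest peaks of Mediator and TFIID, held none of these words, and neither did that of taf-7.2. The mdt-26 window combined a GA repeat, a GC-box and GCGC, and the taf-3 window carried the GA repeat on the opposite strand, overlapping CTGCGTCT. In the rpb-11 window GCGC occurred 3 times.

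Peaks of TBX-2 lay at 18 of the 59 genes (30.5%, 95% exact interval 19.2 to 43.9), against 11.5% of all protein-coding genes. Mediator had the highest share, with 9 of 20 genes (45%, 23.1 to 68.5). TFIID had 5 of 18 (27.8%, 9.69 to 53.5), RNA polymerase II 3 of 11 (27.3%, 6.02 to 61.0) and the other general factors 1 of 10 (10%, 0.253 to 44.5). The 4 intervals overlap widely, and the difference between Mediator and the other groups was not tested. Of the 4, only the Mediator interval lies wholly above the share of all genes, and with each peak given only to its nearest 5′ end it does not (4 of 20, 5.73 to 43.7, against 8.62%). The intervals are Clopper-Pearson intervals that cover counting error only. Genes that share a promoter were each counted, so 1 peak can count for more than 1 gene.

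The replicates gave nearly the same counts. Each replicate was cut to its 3053 strongest peaks. In each of these top lists 19 of the 59 genes carried one (32.2%), against 11.2% of all genes in replicate 1 and 11.3% in replicate 2. The genes were not all the same: rpb-3 and rpb-7 counted in replicate 1 only, and rpb-4 and taf-11.3 in replicate 2 only. Mediator had 9 of 20 in each. TFIID had 5 of 18 in replicate 1 and 6 in replicate 2 (30.6% ± 3.93, SD, n = 2), and RNA polymerase II had 4 of 11 and 3 (31.8% ± 6.43, SD, n = 2). The general factors had 1 of 10 in each. All genes averaged 11.3% ± 0.0991 (SD, n = 2).

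**Figure D1:**
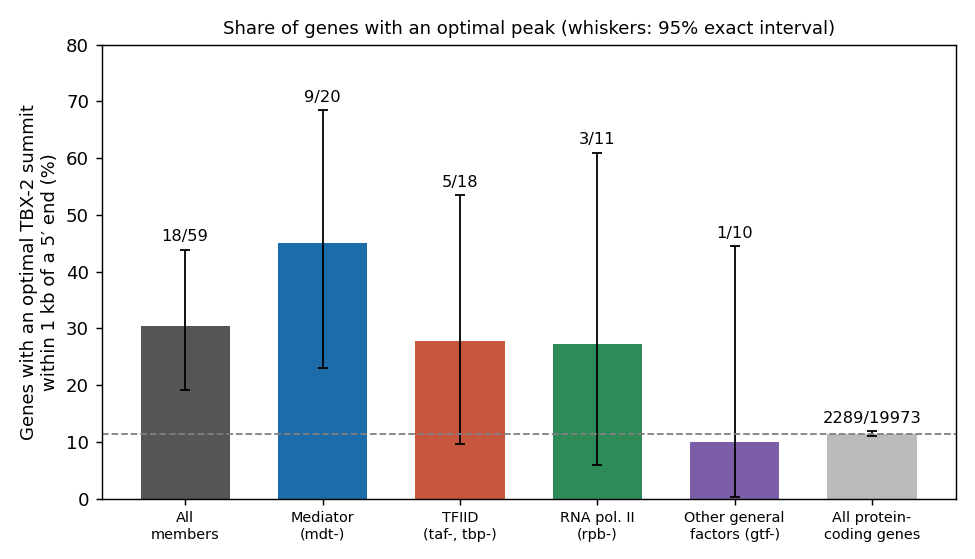
Percentage of genes with a summit within 1 kb of a 5′ end, by role group, with all protein-coding genes at the right. Bars show the optimal list with counts above them and 95% exact intervals as whiskers. Mediator stands highest at 45%, and the dashed line marks the 11.5% of all genes.

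Among Mediator genes the strongest peak lay upstream of mdt-8, which encodes a subunit of the head module, the part of Mediator that contacts the polymerase. Its signal was 486 in the optimal list, where it ranked 41 (chrII:11534563-11534998, ce11). It ranked 61 in replicate 1 (signal 251) and 31 in replicate 2 (signal 232). The summit lay 965 bp upstream of mdt-8 and only 302 bp upstream of Y62F5A.12, so the nearer 5′ end belongs to another gene. The other head subunits with peaks were mdt-18, mdt-6 and mdt-22.

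For mdt-18 the signal was 236 in the optimal list, 152 in replicate 1 (rank 289) and 86.1 in replicate 2 (rank 649). That summit lay 171 bp upstream, inside a noncoding exon of another mdt-18 transcript, and uri-1, a gene of a prefoldin-like protein, shared it at 272 bp upstream. The mdt-6 peak had a signal of 180 in the optimal list, 96.4 in replicate 1 and 80.5 in replicate 2. It lay 907 bp upstream of mdt-6 but 1 bp downstream of the 5′ end of Y57E12AL.1 and 61 bp upstream of Y57E12AL.6. Both neighbours were therefore closer. At mdt-22 the signal was 146 in the optimal list, 79.4 in replicate 1 and 67.0 in replicate 2. Its summit was 69 bp upstream, in an intron of clpp-1, which encodes a mitochondrial protease and whose 5′ end was 67 bp away.

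The middle module, which links the head to the tail, had peaks at mdt-26, mdt-19, mdt-9 and mdt-1.2. The gene mdt-26 encodes a subunit whose human counterpart recruits elongation factors, and it was the only gene of the 59 with more than 1 optimal peak. Its 3 summits lay 11 bp, 668 bp and 867 bp downstream of a 5′ end, the first in a coding exon and the others in an intron. Their signals were 174, 229 and 130.3 in the optimal list. In replicate 1 they were 99.1, 124 and 69.6, and in replicate 2 they were 86.3, 108 and 44.5. The intronic summit at 668 bp was thus the highest of the 3 in each list, and the intervals of the last 2 overlap (chrII:5661682-5662066 and chrII:5661682-5662133).

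At mdt-19 the signal was 199 in the optimal list, 123 in replicate 1 and 71.7 in replicate 2. The summit lay 798 bp upstream of mdt-19 and 221 bp upstream of apb-1, a clathrin adaptor gene on the other strand. At mdt-9 the signal was 159 in the optimal list, 81.2 in replicate 1 and 82.1 in replicate 2. Its summit, 132 bp upstream, had 3 more genes within 1 kb, of which Y62E10A.23 (76 bp) was nearer and lsm-3, which encodes an RNA-binding Sm-like protein, was farthest (955 bp). The mdt-1.2 peak was weaker, with 115.4 in the optimal list (rank 1761), 69.5 in replicate 1 and 46.0 in replicate 2. No other protein-coding 5′ end lay within 1 kb of it. MED1, the mammalian counterpart of mdt-1.2, contacts nuclear receptors. The last Mediator peak, at mdt-27, had a signal of 95.9 in the optimal list, 50.1 in replicate 1 and 41.0 in replicate 2, and lay 923 bp inside the gene in an intron.

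By module, 4 of 7 head genes and 4 of 8 middle genes carried a peak, with 1 of 4 genes that lie between head and tail. The share over all protein-coding genes was 11.5%, and these small counts were not tested. At the head genes mdt-8, mdt-6 and mdt-22 and the middle genes mdt-19 and mdt-9, the summit was nearer to another gene. The 1 tail gene of the set, mdt-15, which in worms controls fat metabolism genes together with nuclear receptors, carried none in the optimal list. Its strongest pooled relaxed peak had a signal of 32.6 and ranked 14346. The Mediator genes without an optimal peak were mdt-10, mdt-11, mdt-15, mdt-17, mdt-20, mdt-21, mdt-28, mdt-29, mdt-30, mdt-31 and mdt-4. Beyond the 1 kb window, mdt-4 had an optimal summit 1405 bp downstream of its 5′ end (signal 205, rank 585), nearer to ZK546.19 (818 bp).

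Of the TFIID genes the strongest peak was at taf-12, a histone-fold subunit. It had a signal of 299.9 in the optimal list (rank 194), 139 in replicate 1 (rank 368) and 162 in replicate 2 (rank 105). The summit lay 950 bp upstream, between protein-coding genes, and no other protein-coding 5′ end was within 1 kb. At taf-7.2 the signal was 210.1 in the optimal list, 115.3 in replicate 1 and 91.4 in replicate 2, with the summit 146 bp upstream and elpc-2, an Elongator subunit gene, nearer at 108 bp. At taf-4, whose product pairs with that of taf-12, the signal was 166 in the optimal list, 102 in replicate 1 and 71.7 in replicate 2, at 262 bp upstream. Thus the values of these 3 genes stood in the same order in each list.

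The other TFIID peaks were at taf-3 and taf-11.1, both on the X chromosome and both with no other protein-coding 5′ end within 1 kb. The mammalian counterpart of taf-3 reads methylated histone H3, and taf-11.1 encodes a histone-fold subunit. For taf-3 the signal was 124 in the optimal list, 59.0 in replicate 1 and 58.0 in replicate 2, at 342 bp upstream. The replicate 1 summit there was 86 bp from the optimal one, the largest offset among the 40 matches. For taf-11.1 the signal was 100.8 in the optimal list, 60.6 in replicate 1 and 41.0 in replicate 2, at 128 bp upstream. The 13 TFIID genes without an optimal peak include tbp-1, the TATA-binding protein gene, whose only peak within 1 kb was a relaxed peak of replicate 2 (signal 12.6, rank 19901), and taf-1, the largest subunit, which had no peak within 1 kb in any list.

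Paralogues differed in the optimal list in the TAF7 and TAF11 families and not in the TAF6 and MED1 families. Of the TAF7 genes, taf-7.2 had an optimal peak, but its summit was nearer to elpc-2 (108 bp) than to taf-7.2 (146 bp). The strongest pooled relaxed peak at taf-7.1 had a signal of 65.1 and ranked 4355. The strongest summit at taf-7.1 ranked 3184 in replicate 1 and 6996 in replicate 2, outside both top lists. Of the TAF11 genes taf-11.1 had an optimal peak, taf-11.3 a pooled relaxed one (60.1, rank 4964) and taf-11.2 one near the bottom of the pooled list (22.3, rank 25703). The strongest replicate 2 peak at taf-11.3 ranked 2819, within the top list of that replicate. Neither taf-6.1 nor taf-6.2 had an optimal peak (pooled signals 41.9 and 61.4). Both MED1 genes had one, mdt-1.2 as above and sop-3 with a signal of 151.

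For the polymerase, rpb-3 and rpb-11, whose products pair to start assembly of the enzyme, both carried peaks. The rpb-11 peak had a signal of 183 in the optimal list (rank 746), 116 in replicate 1 and 68.3 in replicate 2. Its summit lay between genes, nearer to rpb-11 than to W01G7.4, which it preceded by 755 bp. The rpb-3 peak was close to the lower edge of the optimal list, with a signal of 84.5 (rank 2870), against a lowest optimal signal of 81.6. Its signal was 50.5 in replicate 1 (rank 2949) and 34.6 in replicate 2 (rank 3270), which put it outside the top list of replicate 2. The rpb-3 summit also fell on the noncoding RNA gene C36B1.16 and shared its promoter with pas-4, a proteasome subunit gene at 146 bp.

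The other polymerase gene with a peak was rpb-12, a small subunit shared by all 3 polymerases. It had a signal of 107 in the optimal list, 52.2 in replicate 1 and 49.6 in replicate 2. The summit lay 286 bp upstream, between rpb-12 and aly-2, an mRNA export factor gene whose 5′ end was 313 bp away. It was the only gene of the 5 shared subunits with an optimal peak, with 2 of 6 among the rest. The gene rpb-2, whose product helps form the active site, had none, nor did rpb-4, rpb-5, rpb-6, rpb-7, rpb-8, rpb-9 or rpb-10.

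Of the 10 gtf- genes the only one with an optimal peak was gtf-2E2, which encodes the small subunit of TFIIE. Its signal was 97.5 in the optimal list (rank 2292), 53.2 in replicate 1 and 41.8 in replicate 2, and the summit lay 15 bp upstream, in an intron of dhgd-1. The partner subunit gene gtf-2E1 had a pooled relaxed peak of 23.8 (rank 23481), 763 bp downstream. The strongest summit at gtf-2E1 ranked 6567 in replicate 1 (488 bp downstream) and 8998 in replicate 2 (864 bp downstream). These summits need not belong to the same peak. The TFIIH genes gtf-2H1, gtf-2H2C, gtf-2H3, gtf-2H4 and gtf-2H5 had no optimal peak, and the strongest relaxed one among them was at gtf-2H3 (48.5, rank 7184). The others without one were gtf-2A2 of TFIIA and gtf-2F1 and gtf-2F2 of TFIIF.

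**Figure D2:**
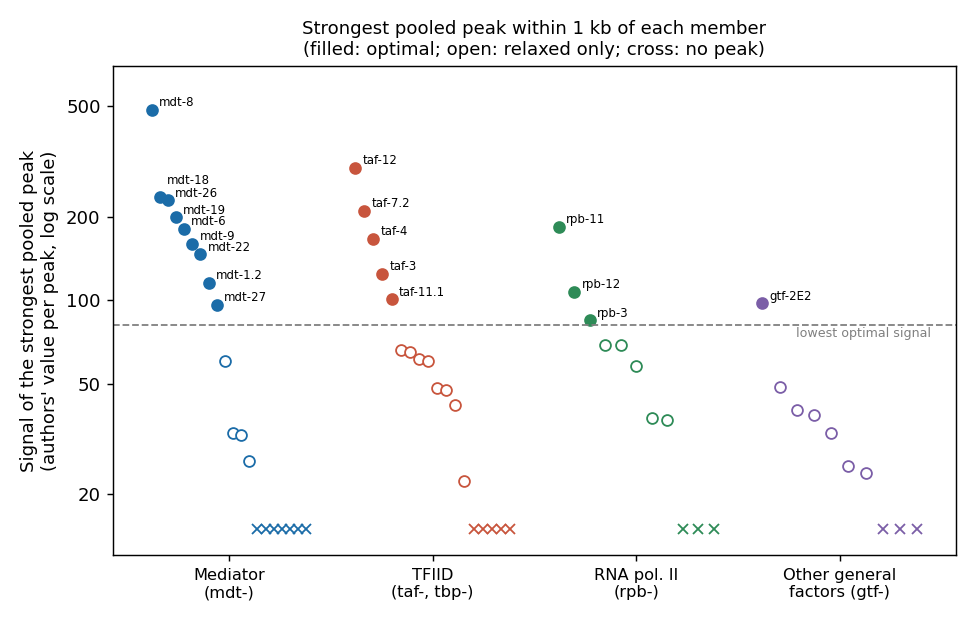
Signal of the strongest pooled peak within 1 kb of each of the 59 genes, on a log axis in the authors' units, by role group and in falling order. Filled points are optimal peaks, open points relaxed peaks only, and crosses genes with no pooled peak. mdt-8 stands highest at 486, and the dashed line is the lowest optimal signal, 81.6.

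The strongest peaks of the 18 genes ranged from 84.5 to 486, with a median of 163 (median rank 955), against a median of 138 (median rank 1284) over the 2289 genes of the genome with a peak. The group medians were 180 for Mediator, 166 for TFIID and 107 for RNA polymerase II, but each group spans a wide range. Mediator peaks alone ran from 95.9 to 486. These signals describe genes that had already passed the threshold of the optimal list.

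All 20 peaks at these genes were found in both replicates, 40 of 40 matches by overlap of at least 1 bp. The optimal list comes from the pooled reads of the same replicates and is labelled as thresholded on reproducibility, so this is a description. The median offset between an optimal and a replicate summit was 8.5 bp. In the top lists 20 of 20 peaks were present in replicate 1 and 19 in replicate 2, rpb-3 being absent. The ranks of mdt-18 (289 and 649) and taf-12 (368 and 105) differed in opposite directions, while those of mdt-8 stayed within the first 61 in both.

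**Figure D3:**
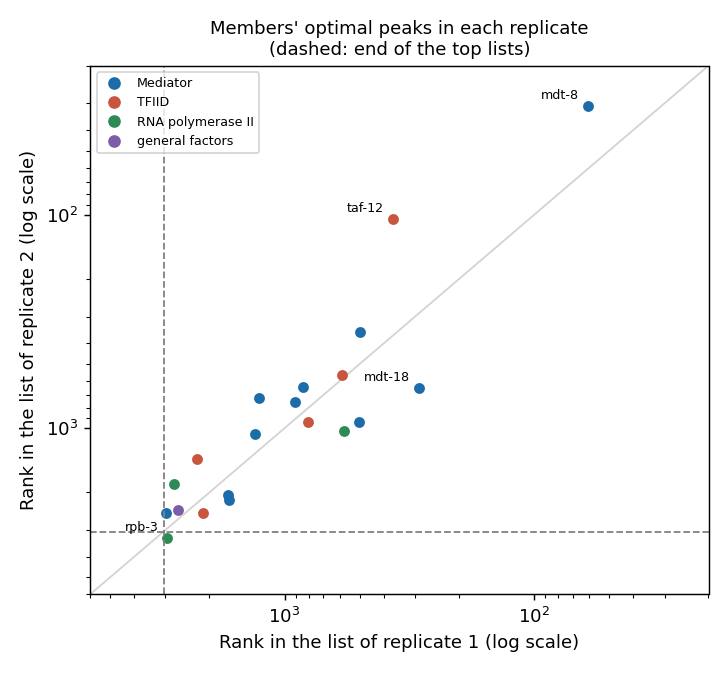
Rank of each of the 20 peaks in replicate 1 (x axis) and in replicate 2 (y axis), on reversed log scales so that the strongest lie at the upper right, with colours for the role groups, the line of equal rank and dashed lines at rank 3053. mdt-8 ranked 61 and 31, and rpb-3 ranked 2949 and 3270.

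Peak positions were compared next. The summits of the strongest peaks were upstream at 16 of the 18 genes (88.9%), against 88.5% over all genes with a peak, and within 350 bp at 12 of 18 (66.7%), against 62.5%. Beyond 750 bp there were 5 of 18 (27.8%), against 12.1%, and 4 of those 5 were Mediator genes: mdt-8, mdt-6, mdt-27 and mdt-19. The median distance was 668 bp for Mediator, 262 bp for TFIID and 131 bp for RNA polymerase II. All 3 polymerase summits lay within 350 bp. No test was made of these differences, which rest on few peaks.

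**Figure D4:**
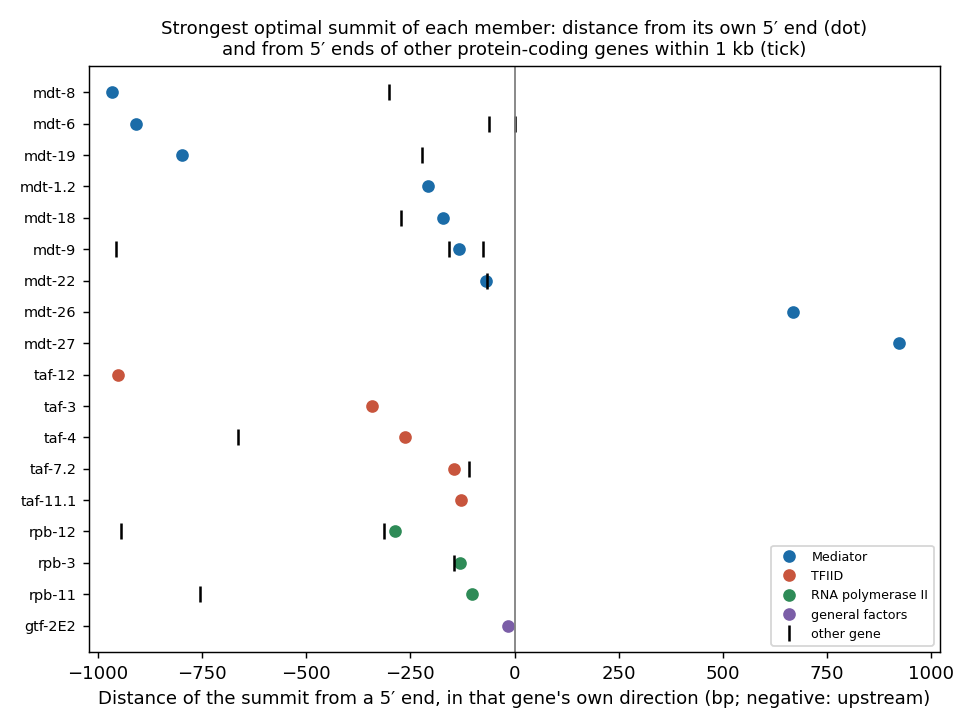
Distance in bp of the strongest summit of each of the 18 genes from its own nearest 5′ end (dots), negative upstream, with ticks for other genes within 1 kb at their own signed distance. The Mediator summits spread from -965 to 923 bp, and the farthest of the 3 polymerase summits lies at -286 bp.

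Several of these peaks could belong to a neighbour. When each peak was given only to its nearest 5′ end, 12 of the 59 genes kept one (20.3%, 95% exact interval 10.98 to 32.8), against 8.62% of all genes. Mediator dropped most, to 4 of 20, since mdt-19, mdt-22, mdt-6, mdt-8 and mdt-9 each lost their peak to a closer gene. TFIID kept 4 of 18, losing taf-7.2, and RNA polymerase II kept its 3 of 11. With that rule the shares of Mediator (20%), TFIID (22.2%) and RNA polymerase II (27.3%) stood in the opposite order, within intervals that overlap. A summit with no other protein-coding 5′ end within 1 kb was found at 7 of the 18 genes (38.9%), against 50.2% of all genes with a peak.

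Upstream neighbours were placed in 3 classes. The upstream neighbour was on the other strand, called divergent here, for 19 of the 59 genes (32.2%), against 46.2% of all genes. That class has no distance limit, and it includes genes that overlap the 5′ end, as at mdt-18 and mdt-22. A same-strand neighbour overlapped the 5′ end or ended less than 350 bp upstream for 25 of the 59 genes (42.4%), against 16.6% of all genes. Overlap was the case at mdt-9, mdt-29, mdt-31 and gtf-2E2. A same-strand neighbour at 350 bp or more was found for 15 (25.4%), against 37.2%. These shares were not tested. In the close same-strand class 5 of 25 carried a peak (20%, 95% exact interval 6.83 to 40.7), against 6.65% of all such genes. Genes whose upstream neighbour is divergent carried one in 10 of 19 cases (52.6%, 28.9 to 75.6), against 16.1%. Where a same-strand neighbour was 350 bp or more away the count was 3 of 15 (20%, 4.33 to 48.1), against 7.82%. The share was above that of all genes in each class, but in the last class the interval includes it, and the 350 bp limit was chosen after the values were seen. Among the 10 with a divergent neighbour were all 3 polymerase genes with a peak. Their gaps to it were 277 bp at rpb-3, 599 bp at rpb-12 and 7781 bp at rpb-11.

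**Figure D5:**
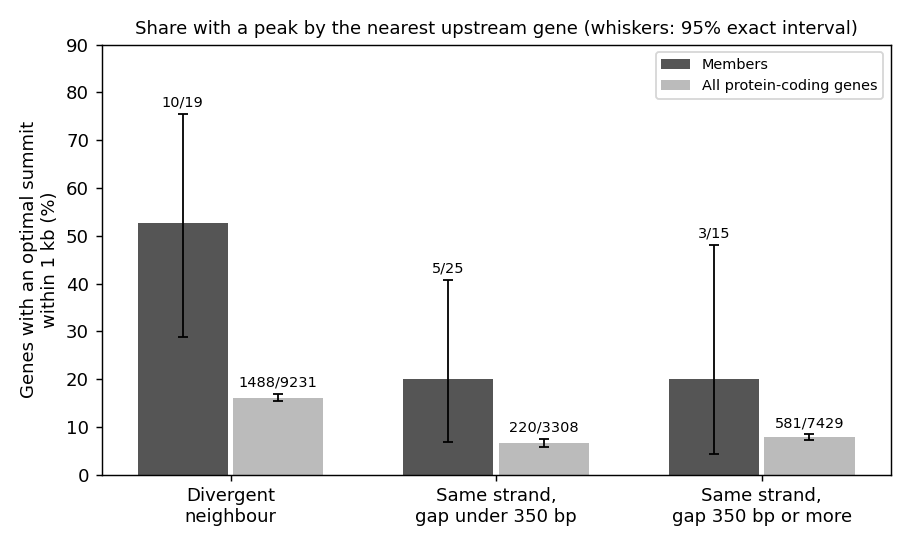
Percentage of genes with an optimal peak by the kind of upstream neighbour, for the 59 genes (left bar of each pair) and all protein-coding genes (right bar), with 95% exact intervals. The divergent class, which has no distance limit, reads 52.6% and 16.1%.

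The peaks were spread over the chromosomes. On chromosome II 5 of 13 genes carried one, on chromosome I 3 of 10, on III 3 of 17, on IV 2 of 8, on V 2 of 7 and on X 3 of 4. The share over all genes was 10.9% on II, 16.2% on I and on III, 10.4% on IV, 6.43% on V and 13.1% on X.

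Below the threshold, 23 of the 41 genes without an optimal peak had a pooled relaxed peak, with signals of 22.3 to 69.1 (median 41.9). Over all 59 genes a pooled relaxed summit was present at 41 (69.5%, 95% exact interval 56.1 to 80.8), against 44.5% of all genes. By its label the pooled relaxed list also holds background, so these summits need not be sites of TBX-2. In that list the role groups stood close together, at 13 of 20 for Mediator, 13 of 18 for TFIID, 8 of 11 for RNA polymerase II and 7 of 10 for the general factors. Among the 23 genes with a pooled relaxed peak but no optimal one, the strongest were at rpb-7 (69.1, rank 3942), rpb-4 (68.8, rank 3974) and taf-8 (66.0, rank 4252). In each replicate the strongest summit within 1 kb was taken on its own, and for rpb-7 and rpb-4 the ranks lay far apart. At rpb-7 it ranked 2804 in replicate 1 (at -6 bp, upstream) and 6157 in replicate 2 (at 140 bp, downstream). These 2 summits need not belong to the same peak. At rpb-4 the strongest summit ranked 6813 and 2920. The genes mdt-10, mdt-20, mdt-21, mdt-29, taf-1, taf-13, gtf-2F1 and gtf-2H5 had no summit within 1 kb in any list.

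Transcription genes with other names carried peaks in 19 of 56 cases (33.9%, 95% exact interval 21.8 to 47.8), against 11.5% of all genes. Mediator genes with other symbols had 4 of 9: sop-3 (signal 151), dpy-22 (134), which encodes the MED12 subunit of the kinase module, sur-2 (118) and lin-25 (116). No optimal peak lay at cdk-8 or cic-1, the kinase and cyclin of that module, or at let-19, rgr-1 or let-49. Counting Mediator under any symbol, 13 of 29 genes carried one (44.8%, 26.4 to 64.3). Transcription elongation genes had 8 of 16 (50%, 24.7 to 75.3), led by cdk-9 (188), the kinase that releases paused polymerase, cdc-73 (172) of the PAF complex and pafo-1 (136).

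Other polymerase II and general factor genes had 3 of 9, at pqn-51 (209), a TFIIA subunit gene, cdk-7 (201), the TFIIH kinase, and ttb-1 (93.5), which encodes TFIIB. The gene of the largest polymerase subunit, ama-1, had none. Genes of polymerases I and III had 2 of 11 (18.2%, 2.28 to 51.8), rpoa-12 (185) and rpac-19 (165). Integrator, a complex that processes small nuclear RNAs, had 2 of 11 (18.2%, 2.28 to 51.8), ints-8 (293) and ints-4 (221). Each of the intervals in this paragraph includes the 11.5% of all genes.

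Short words were counted on both strands in the same window of 50 bases to each side at each of the 20 summits, in the windows of all 3034 nuclear optimal peaks, and in the windows from 200 to 100 bp upstream of all 19973 genes. The GA repeat (GAGAGA) was in 4 of 20 (20%), at mdt-26, mdt-19, taf-3 and mdt-1.2, against 31.0% of optimal peaks and 8.42% of upstream windows. The CTGCGTCT element was in 1 (5%), taf-3, against 10.3% and 1.48%, and the GC-box (GGGCGG) in 1, mdt-26, against 7.81% and 2.55%. TATAAA was in 1, taf-4, against 3.20% and 13.4%. The T-box site GGTGTGA was in 0 of 20, against 1.32% and 0.921%. GCGC, a word added after the sequences were seen, was in 12 of 20 (60%), against 41.9% and 12.4%, and 3 of those 12 windows belong to mdt-26. The median GC content was 45.5% in the 20 windows, against 49.5% and 33.7%. A match is a description of the letters and not a binding site.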

How the data were processed

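ChIP-seq of TBX-2-GFP was analysed from peak lists on the ce11 build, 1 per replicate, 1 pooled and 1 optimal. Peaks were called on each replicate and on the pooled data, each with a control library, per the accompanying file lists. For the aligner, the peak caller and the IDR cutoff, the tool or value was not given in the sources used here. The authors deposited a signal per peak, with no stated scale, and it was used only within a list. Lists on ce10 were not used here, since no annotation of that build was at hand. No peak was filtered out, so 16 entries of the optimal list share an interval with another summit, and mitochondrial peaks were left out of gene counts.

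Summits were assigned to all protein-coding 5′ ends within 1 kb (Ensembl annotation 115 of WBcel235) with Python 3.11.15, NumPy 2.4.6 and SciPy 1.17.1. For each replicate the 3053 strongest peaks formed its top list. Shares have 95% exact (Clopper-Pearson) intervals, and no test was made between groups of genes, since the 2 replicates form 1 group. The assignment was tested on simulated data. The genes and lists were chosen with earlier results of these data known. Named are all genes of the set with an optimal summit, those with one at up to 2 kb, the 3 strongest below the threshold, neighbours that share a peak, and up to 3 strongest of each list of other transcription genes. Genes named beyond this rule (paralogues, partner subunits, the fourth Mediator gene with another name, and well-known subunits without a peak) were chosen after their values were seen. The alternatives were other windows, assignments and thresholds, and each replicate alone.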

Additional observations from a re-analysis of the deposited data

How the results depend on the processing

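The share of the 59 genes stayed above that of all genes under every alternative run: 13 genes (22.03%) against 8.72% within 500 bp, 19 (32.2%) against 15.9% within 2 kb, 16 (27.1%) against 10.5% for upstream summits, 12 (20.3%) against 8.62% for the nearest 5′ end, 17 (28.8%) against 10.6% for the 5′-most end, 18 (30.5%) against 12.5% for whole intervals, and 11 (18.6%) against 6.67% with the 1527 stronger optimal peaks. With 1 replicate left out 19 genes (32.2%) carried a peak, against 11.2 to 11.3% of all genes. Without replicate 1, rpb-4 and taf-11.3 were gained and rpb-3 was lost, and without replicate 2, rpb-7 was gained. The Mediator count of 9 was 5 within 500 bp and 4 for the nearest 5′ end. With the stronger peaks TFIID had 3 genes, RNA polymerase II 1 and the general factors 0. The peak was then nearest to the own 5′ end at 5 of the 11 genes with one, against 12 of 18 in the whole list. The median percentile of the strongest peak of the genes with one was 68.8 in the whole optimal list. It was 62.1 within 500 bp and 45.5 for the nearest 5′ end. With 1 replicate left out it was 58.8 to 66.4, within the top list of the other replicate. With the stronger peaks it was 79.7, still ranked among all 3053 optimal peaks. Leaving out the weaker peaks could only raise that value. The cause of the other differences was not tested. No paired analysis was possible because there is 1 group. Small groups limit every share, and read depth is unknown.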
